A study of Mus musculus with 6 samples.

Results

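The 5 genes described here encode the dopamine D1 and D5 receptors (Drd1 and Drd5), the β1-adrenergic receptor (Adrb1) and the adenosine A2a and A2b receptors (Adora2a and Adora2b). They were followed through 6 deposited peak lists of thyroid hormone receptor α (TRα) binding. The peaks described are those whose annotation text in the deposited tables carries a RefSeq protein accession of one of these genes. They numbered 55 of the 491681 peaks deposited in all, and 55 of the 3812 peaks that could be given a gene name. The text named 395 genes, and these 5 were chosen by values already measured here, namely their assigned peaks, the pileups and folds of these, and the presence of 1 Drd1 region in every list. Those values are therefore a description and not a test.

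The assay was ChIP-seq, the sequencing of DNA precipitated together with TRα, on the gastrocnemius (a calf muscle) of mice aged 6, 15 and 21 months, called young, middle-aged and old below. Each age had 2 mice, replicate 1 and replicate 2, and each mouse had its own list. The labels give no strain, sex or treatment and no statement of pooling, and they name 1 antibody to TRα for all 6 mice. Each list was called against an input library of the same mouse, according to the deposited peak names. Binding data of whole muscle do not show which cells the chromatin came from, and the lists hold no expression values with which the tissue could be checked.

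All 5 receptors sit in the plasma membrane and couple to the stimulatory G protein, which activates adenylyl cyclase and raises cyclic AMP (cAMP). Dopamine is the ligand of D1 and D5, noradrenaline and adrenaline of β1, and adenosine of A2a and A2b. In skeletal muscle, cAMP made after β-adrenergic stimulation acts through protein kinase A on contraction, glycogen breakdown and growth. TRα binds DNA at copies of a short hexamer, AGGTCA in its consensus form, often as a pair of direct repeats with a 4-base gap and in partnership with a retinoid X receptor. Adrb1 is a known thyroid hormone-responsive gene in the rodent heart.

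The upstream sequence of Drd1 is shown because this gene held the only deep peaks of the group. RefSeq promoter windows (GRCm38.p6) matched 4 of the 5 genes, Adora2a being the other, and those of Drd1 gave 2 starts. Shown are the 250 bases before each start, read 5′ to 3′ on the minus strand, with copies of GGTCA in either orientation in capitals.
Drd1 start 1, GRCm38.p6 chr13:54055659-54055908: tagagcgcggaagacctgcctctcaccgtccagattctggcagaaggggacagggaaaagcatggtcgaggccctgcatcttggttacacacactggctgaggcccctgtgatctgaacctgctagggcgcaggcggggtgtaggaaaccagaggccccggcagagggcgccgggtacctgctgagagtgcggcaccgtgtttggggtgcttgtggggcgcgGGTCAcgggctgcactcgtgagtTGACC
Drd1 start 2, GRCm38.p6 chr13:54054781-54055030: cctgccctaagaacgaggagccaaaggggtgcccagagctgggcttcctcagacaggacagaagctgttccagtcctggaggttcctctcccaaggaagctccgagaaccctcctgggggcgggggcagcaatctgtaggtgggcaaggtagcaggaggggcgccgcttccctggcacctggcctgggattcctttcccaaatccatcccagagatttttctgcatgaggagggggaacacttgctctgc
The peaks below are on GRCm39, so these positions and theirs must not be set side by side, and whether any peak overlaps these windows was not analysed here. AGGTCA, searched on both strands, was in none of the 5 windows of the 4 genes, and it was in 14.0% of the 32851 RefSeq windows of the same length. The direct repeat of 2 such hexamers with a 4-base gap, on either strand (0.0152% of all windows), and the cAMP response element TGACGTCA (1.55%) were also in none. The shorter GGTCA, which every AGGTCA contains and which was searched only after the first found nothing, occurred 2 times before Drd1 start 1 and in 35.2% of all windows. These letters are a description of the windows and not of binding.

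Drd1 was assigned 23 peaks, and 6 of them formed a single region with a peak in every mouse. It spanned 823 bp at chr13:54173594-54174416 (GRCm39). The pileup, a count of the fragments that overlap the summit, was 8 and 44 in young replicates 1 and 2, 17 and 17 in the middle-aged mice, and 19 and 31 in the old. The fold over the local background was 4.10 and 25.1 in the young, 10.6 and 9.27 in the middle-aged and 10.7 and 17.2 in the old mice. The lowest and the highest value both came from the young mice, so that age enclosed the others. The q-value deposited for the peak was 0.116 in young replicate 1. It was 7.97e-57 in young replicate 2, 4.35e-15 and 1.01e-12 in the middle-aged mice and 4.28e-16 and 8.63e-34 in the old, so 5 of the 6 peaks reached q of at most 0.05.

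**Figure D1:**
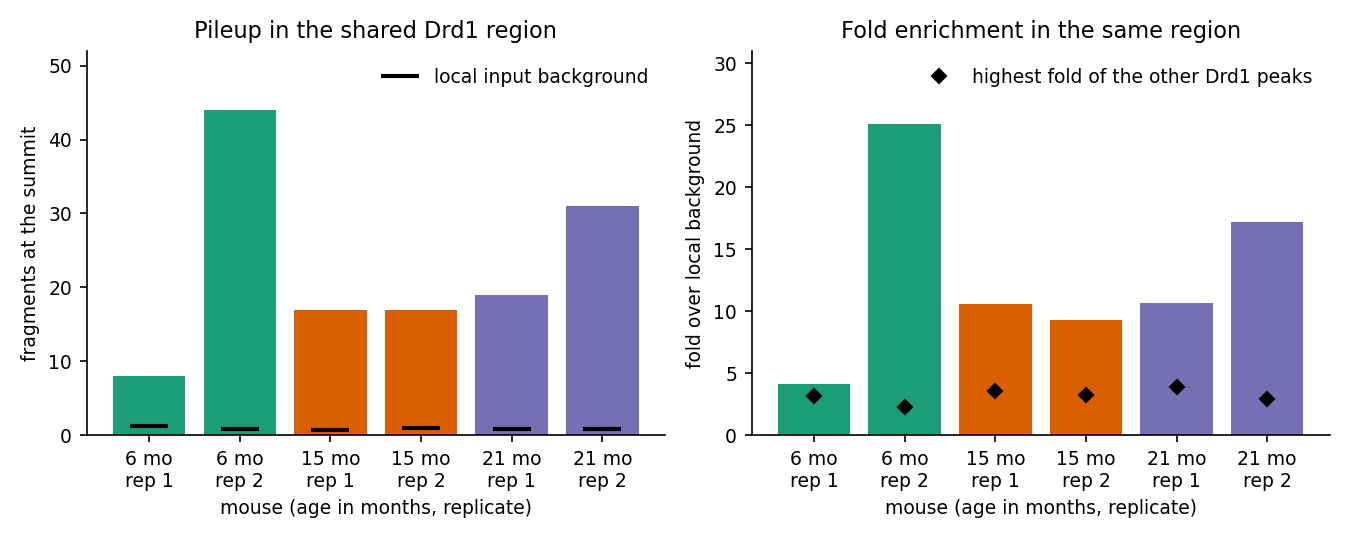
Bars give the pileup in fragments (left) and the fold over local background (right) of the shared Drd1 peak in each of the 6 mice, coloured by age; black lines mark the local background and diamonds the highest fold among the other Drd1 peaks of the same mouse. The pileup ran from 8 to 44 fragments, both ends in young mice, over a background of about 1 fragment, and every bar on the right stood above its diamond.

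The mean fold was 14.6 ± 14.9 (SD, n = 2) in young, 9.95 ± 0.952 (SD, n = 2) in middle-aged and 13.9 ± 4.59 (SD, n = 2) in old mice. The spread between the young mice was larger than any difference between these means. Fold is a value of the single peak against its own input, and the region was chosen for its presence in all lists, so no test between ages was made. Young replicate 1, with the weakest peak, stood apart over its whole list. Its highest fold anywhere was 269, against 532 to 1543 in the other lists, and 44 of its peaks reached 10-fold, against 108 to 211. Its genome-wide background was 1.20 fragments, against 0.633 to 0.824 in the other 5. The part of these differences in the low Drd1 value was not tested.

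The local background at the Drd1 region lay between 0.695 and 1.20 fragments, which was 1.00 to 1.25 times the genome-wide level of the same library. The ratio was 1.25 and 1.21 in young and old replicate 2, which had the highest pileups, and 1.00 to 1.14 in the other mice. A link between this ratio and the height of the peak was not tested. Ranked by fold within its own list, the peak stood at place 874 in young replicate 1 (the top 1.11%) and at places 103 to 186 in the other 5, within the top 0.391% of each. These ranks describe each list alone, since the lists differ in length.

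The summits fell close together. They lay between 54174128 and 54174163 on chromosome 13, a spread of 35 bp over the 6 mice, inside a stretch of 228 bp (chr13:54173985-54174212) that all 6 peaks covered. Across the whole series 112 of 458111 merged regions (0.0244%) had peaks in every mouse, and 108 of these had exactly 1 peak per mouse. The median summit spread of the 108 was 46.0 bp, and 47 of them, Drd1 included, had a spread of at most 35 bp. In summit spread, which played no part in the choice of the region, Drd1 was therefore near the middle of that set. Its width was above the median of 452.5 bp for the 108.

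The edges varied more than the summits. The peak was 233 and 588 bp wide in young, 413 and 260 bp in middle-aged, and 668 and 640 bp in old mice. Both old mice had wider peaks than the 4 younger mice. Their extra length lay on the lower-coordinate side, where the edges of the 6 peaks ranged over 391 bp, against 204 bp on the other side. Among the 108 regions with 1 peak per mouse, 6 (5.56%) had this order of widths. Peak width also changes with depth and with the calling threshold, and their part here was not tested.

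**Figure D2:**
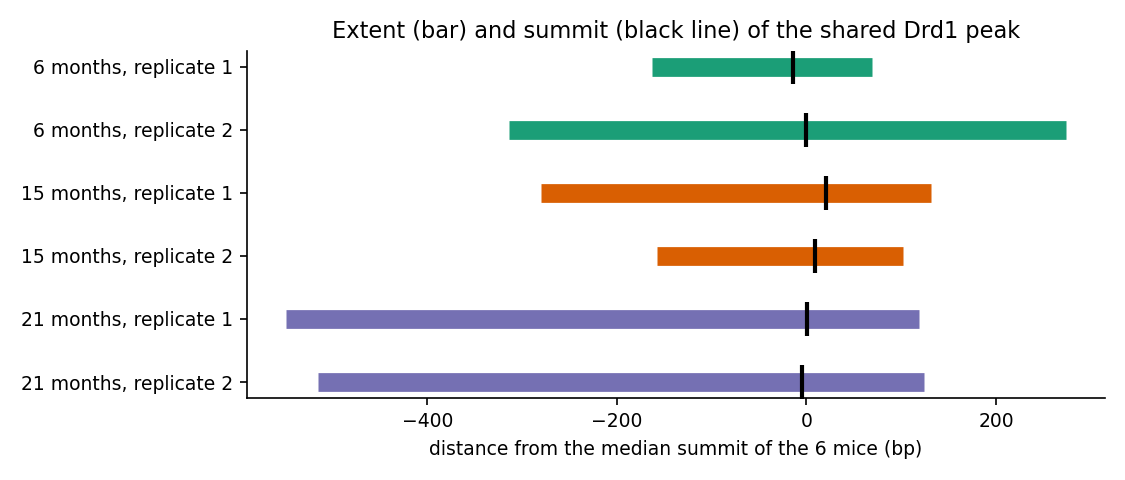
Each bar is the extent of the shared Drd1 peak in 1 mouse and the black line its summit, on an axis of distance in bp from the median summit of the 6 mice. The summits lie within 35 bp of each other, while the left edges, at lower coordinates, spread over 391 bp and reach farthest in both old mice.

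The other 17 Drd1 peaks were shallow. Their pileups ran from 3 to 7 fragments and their folds from 2.20 to 3.86, with a median of 2.85, and the lowest q was 0.172. They were spread over 14 regions between 6.34 kb below and 39.4 kb above the deep summit, 2 on the lower-coordinate side and 15 on the higher, and 12 of the 17 lay in regions of 1 mouse. Only 2 came within 2 kb of the deep summit, 1 in middle-aged replicate 1 (1.64 kb below) and 1 in old replicate 2 (1.76 kb above). The deep peak was 1.30 times the best other Drd1 fold in young replicate 1, and 2.77 to 11.2 times in the other mice.

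Drd1 peaks also lay closely spaced. Between the nearest peaks on either side not assigned to the gene, a stretch of 58.5 kb, Drd1 had 393 peaks per Mb over the 6 lists, against 190 for chromosome 13 as a whole. The same measure had a median of 124 over all 395 named genes. The chromosome rate takes all peaks over the whole length they span, so here and below it is not measured like that of a gene. Drd1 was exceeded by 1 other gene, Atg7, an E1-like enzyme of autophagy, with 413. Without the 6 peaks of the shared region, Drd1 had 290 peaks per Mb and 6 other genes were at or above it. Assigned peaks were among the values by which the genes were chosen. Nothing is therefore read from this rank, or from the densities of the other genes below. All 23 peaks inside the span of the Drd1 peaks were assigned to Drd1. The distance from these peaks to the Drd1 start was not analysed here.

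Adora2b, the low-affinity adenosine receptor, followed with 18 peaks in 5 mice. The young mice had 1 and 5, the middle-aged 6 and 0, and the old 1 and 5. At each age 1 mouse held most of the peaks, so the ages overlapped. The peaks covered 72.2 kb of chromosome 11 (62073978 to 62146188), with 3 to 5 fragments each and folds from 2.21 to 3.22. Their density of 196 peaks per Mb compares with 184 for the whole chromosome and with the median of 124 over named genes, of which 70, Adora2b included, were at or above it. The lowest q was 0.418. Its assigned stretch of 92.1 kb was the longest of the 5, and no single peak of it was deep.

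Adrb1 was assigned 8 peaks, 3 and 1 in the young mice, 1 and 0 in the middle-aged, and 0 and 3 in the old. They lay between 56686771 and 56715670 on chromosome 19, with 3 to 6 fragments and folds from 2.25 to 4.09. The strongest was in old replicate 2 at chr19:56686982-56687397, with 6 fragments, a fold of 4.09 and a q of 0.0959. It was the lowest q of the group outside the shared Drd1 region, and it did not reach 0.05. The 8 peaks had a density of 133 per Mb, against a median of 124 over named genes and, measured otherwise, 181 for chromosome 19.

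Adora2a, the high-affinity adenosine receptor that is abundant in striatum, was assigned 4 peaks, 0 and 1 in the young, 2 and 0 in the middle-aged, and 0 and 1 in the old mice. Their folds ran from 2.24 to 3.44, and the lowest q was 0.367, at chr10:75137271-75137584 in middle-aged replicate 1. Drd5 was assigned 2 peaks, 1 in young replicate 1 and 1 in old replicate 1. The second, at chr5:38459923-38460303, had 8 fragments and a fold of 3.30 over a background 2.12 times the genome-wide level, with a q of 0.249. These 8 fragments equal the pileup of the Drd1 peak in young replicate 1, whose background was at the genome-wide level. The peaks of both genes fell in regions of 1 mouse each.

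**Figure D3:**
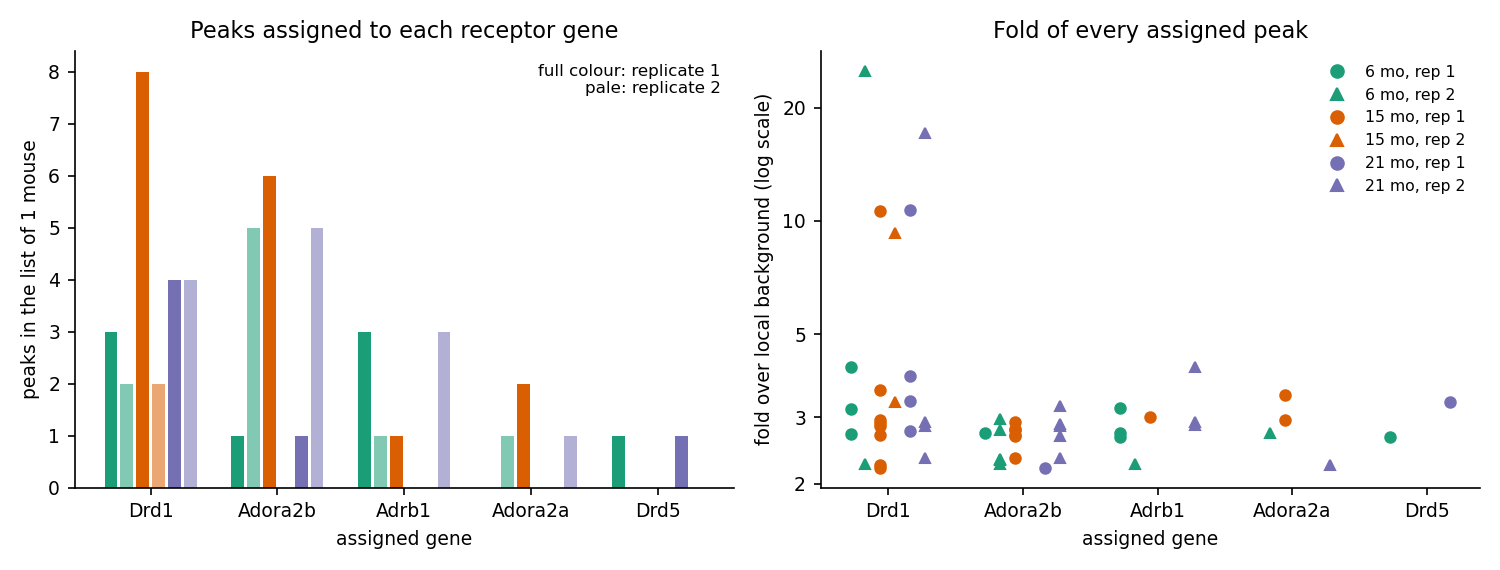
The left panel counts the peaks assigned to each of the 5 genes in each mouse (full colour for replicate 1, pale for replicate 2), and the right panel gives the fold of every one of the 55 peaks on a log scale. Only Drd1 has points above 5-fold, 5 in all, and its sixth deep-region point is the 4.10 of young replicate 1.

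Taking the group as a whole, Drd1 was the only gene of the 5 with a peak in all 6 mice, against 73 of 395 named genes (18.5%). Both young mice had peaks of 3 of the 5 genes (43.3% over all named genes), both middle-aged mice of 1 (32.9%) and both old mice of 2 (43.0%). Drd1 was also the only one with a peak at q of at most 0.05, against 54 of the 395 (13.7%). All 5 such peaks belonged to the shared region, so the other 49 peaks held none. This q was reached by 2.21% of all deposited peaks and by 1.99% of those with a gene name. The median pileup of the 55 peaks was 4.00 fragments and their median fold 2.85, against 4.00 and 2.82 over all 491681 peaks. Outside the shared region the 49 peaks had a median fold of 2.78, and 38 of them (77.6%) lay in regions of 1 mouse, against 87.2% of all peaks.

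By an overlap of at least 1 bp, the 55 peaks formed 44 regions, and 6 of these (13.6%) held peaks of 2 or more mice, 3 of Drd1, 2 of Adora2b and 1 of Adrb1. Among all merged regions 6.4% did. Of the 5 genes 3 had such a region, against 28.4% of the 395 named genes. Shared peaks were among the values by which the genes were chosen, so nothing is read from these shares. Beside the deep region, Drd1 shared chr13:54192325-54192634 between middle-aged and old replicate 1, with summits 166 bp apart. The last Drd1 region, chr13:54212515-54213609, joined 3 mice only end to end, by overlaps of 15 and 26 bp, and its summits were spread over 988 bp. It is a chain of neighbouring peaks more than a common position.

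The Adora2b region chr11:62121139-62121586 held peaks of young and old replicate 2 whose summits were 1 bp apart. The pileups there were 3 and 4 fragments, and the lower q was 0.799. In the other, chr11:62095426-62095716, the summits of middle-aged replicate 1 and old replicate 2 were 137 bp apart. The Adrb1 region chr19:56686771-56687397 joined the same 2 mice, with summits 378 bp apart and folds of 3.01 and 4.09. No peak of the 5 shallow shared regions, the 2 of Drd1 included, reached q of at most 0.05. None of these regions joined both mice of 1 age without a mouse of another. With an overlap of at least 50% of both peaks, 2 of the 6 regions were left.

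**Figure D4:**
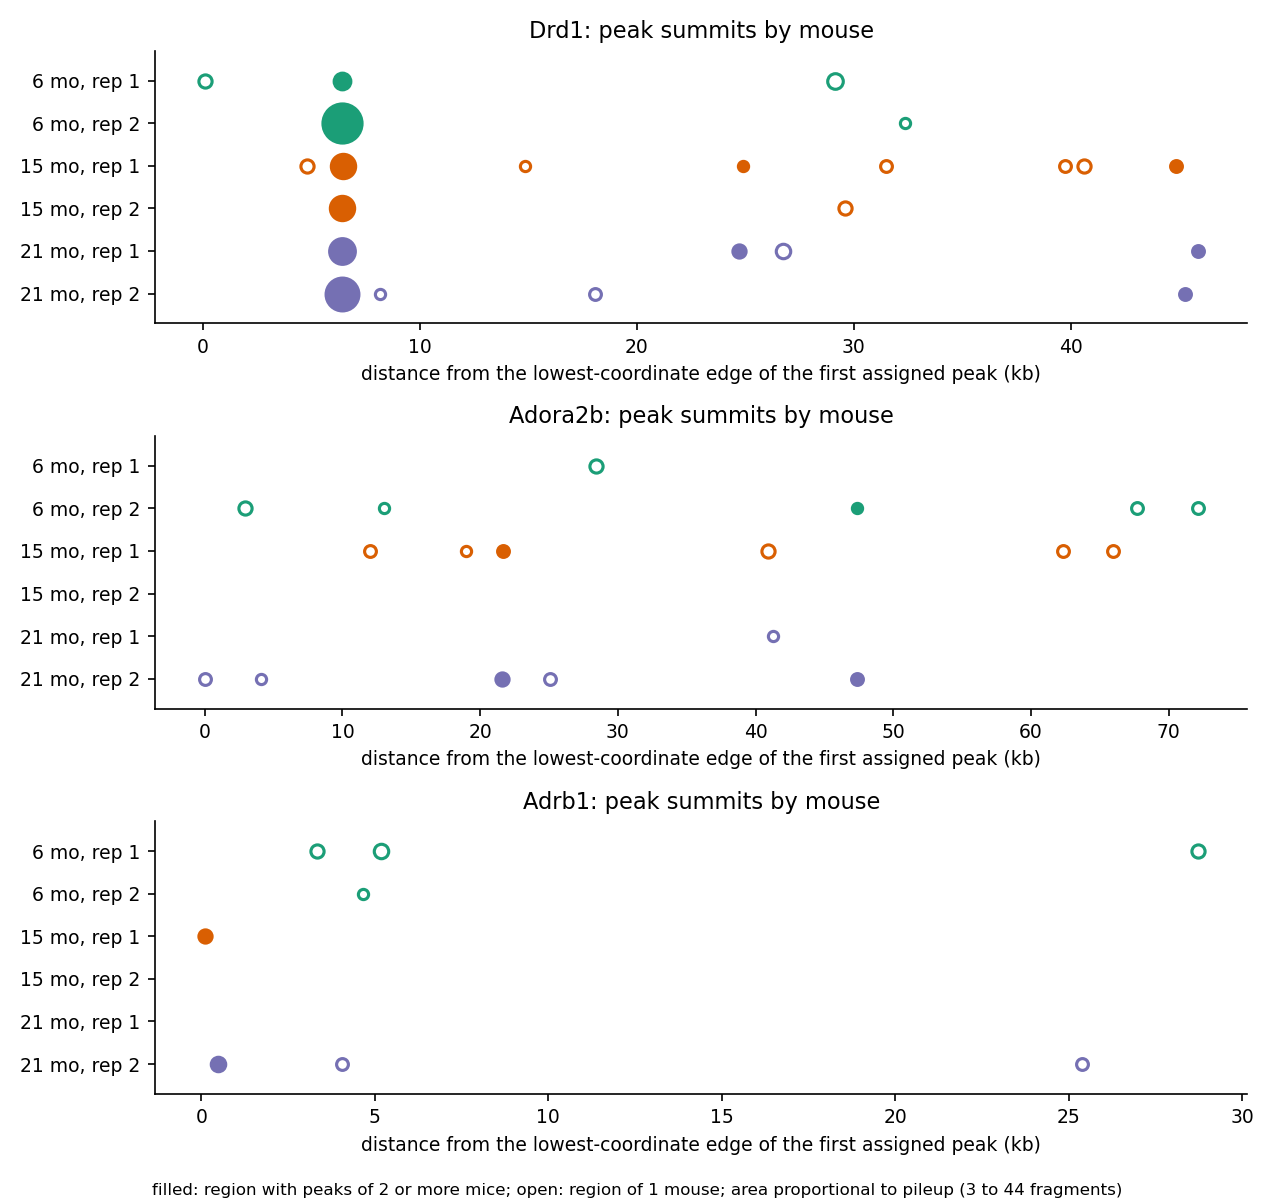
Peak summits assigned to Drd1, Adora2b and Adrb1 are drawn by mouse along the distance in kb from the first assigned peak, with circle area proportional to pileup and filled circles for regions with peaks of 2 or more mice. The column of large circles in the Drd1 panel is the region present in all 6 mice, and the remaining circles hold 3 to 7 fragments.

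The study compared ages, and the choice of these genes did not use age. Peaks per gene were therefore divided by the length of the list and compared with age over the 6 mice. Drd1 had 3 and 2 peaks in young, 8 and 2 in middle-aged, and 4 and 4 in old mice. Per 10000 peaks of the list this was 0.380 and 0.188, 0.805 and 0.680, and 0.436 and 0.465. In these rates the 3 ages did not overlap, with the middle-aged highest and the young lowest. The same was so of 12 of the 395 named genes (3.04%), in any order of the ages.

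This separation rested on few peaks. The rate of middle-aged replicate 2 came from 2 peaks in a list of 29405, the shortest. Without the shared region the Drd1 rates overlapped, at 0.253 and 0.0942 in young, 0.704 and 0.340 in middle-aged, and 0.327 and 0.349 in old mice. They also overlapped among peaks of at least 5 fragments, at 0.452 and 0.374, 0.991 and 0.891, and 0.811 and 0.362. The list length and the rate share a library, and their parts cannot be told apart with 2 mice an age.

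No gene of the group passed the test for a trend with age. Pearson's r of the Drd1 rate with age was 0.44 (two-sided exact permutation p = 0.4, adjusted p = 1), with Spearman's rho 0.48 (exact permutation p = 0.4, adjusted p = 1). Both keep the peak of the shared region, whose presence in every mouse was fixed by the choice of that region. The trend of the Drd1 rate without that region was not tested. Leaving out the 2 young mice, whose age lay farthest from the median, r was -0.96 over 4 mice, so the sign rested on the youngest mice. Here and below, an r without the young mice compares only 2 pairs of mice and was not tested. Without the shared region, the Drd1 rates of the middle-aged and old mice overlapped. Adrb1 had r -0.22 (exact permutation p = 0.7, adjusted p = 1), rho -0.30 (p = 0.556, adjusted 1) and r 0.43 without the young mice. For Adora2b, r was 0.07 (exact permutation p = 0.856, adjusted p = 1), rho was 0 (p = 1, adjusted 1) and r without the young pair was 0.08. Adora2a had r 0.09 (exact permutation p = 0.9, adjusted p = 1), rho 0.13 (p = 1, adjusted 1) and r -0.25 without them. Drd5 had r -0.12 (exact permutation p = 0.8, adjusted p = 1), rho -0.14 (p = 0.933, adjusted 1) and r 0.58 without them.

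Over all 395 named genes the count passing an adjusted p of 0.05 was 0 (0.0%), with 9 at an unadjusted p under 0.05 by Pearson's r and 2 by Spearman's rho. With 90 assignments of ages to mice the smallest possible p of Pearson's r is 0.0111. For any gene to pass, 88 would have had to reach it, so the design could hardly call a single gene. The smallest possible p of rho is larger, because ranked ages are evenly spaced and each assignment has a reverse of equal strength. These p-values are the share of assignments with a correlation at least as strong, and they take the mice as independent. Nothing says that mice of an age were independent of litter or cage.

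Other receptors of the family were looked up in the same text. Of 18 dopamine, adrenergic and adenosine receptor genes, 7 were named, with Drd2 and the 5 above among them. Only 3812 of the 491681 peaks could be given a gene name, so a gene not named may still have peaks. Drd2, the inhibitory D2 receptor, also had 23 peaks, with 4 and 11 in young, 3 and 1 in middle-aged, and 1 and 3 in old mice. Each lay in a region of 1 mouse, the highest fold was 3.76 and the lowest q 0.192. Its rate had r -0.79 with age (two-sided exact permutation p = 0.0333, adjusted p = 1), rho -0.72 (p = 0.178, adjusted 1) and r -0.47 without the young mice. Drd1 and Drd2 thus had equal numbers of peaks, and the shared deep region was found for Drd1 alone of the pair.

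Of 30 genes of the signalling chain behind these receptors, 6 were named, and here too a gene not named may still have peaks. Gnas, the stimulatory G protein α subunit itself, had 4 peaks in 3 mice with a highest fold of 3.25. Prkaca and Prkacb, catalytic subunits of protein kinase A, had 2 peaks each. Grk2, a kinase that desensitises active receptors, had 13 peaks in 5 mice, 2 of them with q of at most 0.05 and the lowest at 0.0435. Arrb1, the β-arrestin 1 that binds phosphorylated receptors, had 4 peaks in 2 mice, with a highest fold of 6.12 and a lowest q of 2.87e-05, in young replicate 2. Arrb2 had 1 peak. Their 26 peaks all lay in regions of 1 mouse, as did 88.9% of all peaks with a gene name.

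The annotation text also showed what the 5 genes have in common outside the peaks. It listed 10 KEGG pathways for Drd1 and the same 10 for Drd5, and 7 for Adora2a and the same 7 for Adora2b. The 3 listed for all 5 genes were calcium signalling (11.4% of the 395 named genes), cAMP signalling (12.9%) and neuroactive ligand-receptor interaction (7.09%). All 3 were also listed for F2rl1, Grin2a and Grin2b.

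Of the other genes, those most like Drd1 across the mice were Kif5c, Rarb and Wnt5a. The measure was Pearson's correlation over the 6 mice of the logarithm of the best peak's rank by fold within its list, among the 73 genes with peaks in every mouse. It was 0.96 for Kif5c, a kinesin heavy chain, 0.90 for Rarb, the retinoic acid receptor β, and 0.89 for Wnt5a, a Wnt ligand, against a median of 0.26 over the 72 genes compared. The 6 points share libraries, and the weak young replicate 1 was the lowest-ranked point of all 4 genes. Best folds of Kif5c were 3.64 and 15.2 in young, 10.0 and 7.68 in middle-aged, and 13.8 and 11.7 in old mice, and it too had a region with peaks in all 6 mice. Only these 2 of the 395 named genes (0.506%) did. Rarb and Wnt5a had best folds of at most 4.41 and 3.38, and no region in more than 2 mice and 1 mouse.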

How the data were processed

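TRα ChIP-seq of 6 gastrocnemius samples was used as deposited. The submitters' processing notes name MACS2 2.1.1.20160309 for peaks, with Trimmomatic 0.36 and SAMtools 1.3.1; aligner and options: not given in the sources used here. GRCm39 and mm10 are both named, and scaffold names in the lists belong to GRCm39. The authors deposited pileup as a signal in fragments, the fold over local background as a ratio, and p and q as −log10 values (column names lost, read by MACS2's column order). The lowest −log10 p was 2.00 or 2.01 in every list. Lists held 29405 to 106152 peaks; read totals were not used here, and background of 3.23 to 5.49 fragments per kb stands in for depth, so most peaks rest on 3 to 5 fragments and a missing peak does not show absent binding. The p and q of a peak cover counting error only.

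Genes were named from protein accessions in annotation text that ran over into extra lines, matched with a GRCm38.p6 table used for names only; the 5 genes matched by 1 accession each. Local background was recomputed as (pileup + 1) / fold − 1 and the lowest in a list taken as genome-wide. Peaks were merged by an overlap of at least 1 bp. Rates with age were tested by exact permutation over 90 assignments, adjusted by Benjamini-Hochberg over 395 genes. The test was also run on simulated counts with counting error as the only spread between mice, and nothing here rests on that run. Named genes are the 5 members, genes of 2 fixed lists (receptor family and signalling chain) and the 3 most like Drd1; Atg7, F2rl1, Grin2a and Grin2b were named after their values were seen; members and lists were chosen with earlier results of these data known. The values of 1 gene of the lists are not reported here. The planned smallest p of 2 in 90 holds for rho but was wrong for Pearson's r, where it is 1 in 90. Alternatives were limits on q and pileup, equal list lengths, other overlap rules, other denominators, a replicate block and leaving out each mouse. Python 3.11.15, pandas 2.3.3, numpy 2.4.6 and matplotlib 3.10.9 were used.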

Additional observations from a re-analysis of the deposited data

How the results depend on the processing

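The Drd1 region had a peak in all 6 mice with a pileup of at least 5, with equal list lengths and with 50% overlap, in 5 mice at either limit on q, and in the 5 left when any mouse was left out (5 to 5). The 55 peaks became 5 at q of at most 0.05, 5 at −log10 q of at least 5, 25 with a pileup of at least 5 and 18 with equal list lengths, and 38 to 53 without 1 mouse. The 6 shared regions became 1, 1, 2 and 2 under the same 4 settings and 2 with 50% overlap, and they rose to 9 when peaks up to 500 bp apart were joined. Without 1 mouse they numbered 2 to 6, with 3 without replicate 1 at 15 months and 2 without replicate 2 at 21 months. Genes with a peak in every mouse, 1 in all, were 0 at either limit on q and 1 to 2 without 1 mouse, the 2 coming without replicate 2 at 15 months, when Adora2b joined Drd1. Apart from the 50% overlap and the joining, which regroup the same peaks, fewer peaks or mice entered each of these settings.

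The count of genes passing the test with age was 0 under every setting run, with 2 to 15 at an unadjusted p under 0.05 by Pearson's r. For Drd1, r was 0.08 to 0.59 under these settings, all of which kept the shared region, but it was -0.96 when both young mice were left out. The sign turned with a pileup of at least 5 for Drd5 (0.18) and Adora2b (-0.22), and with equal list lengths for Drd5 (0.51); the cause was not tested. Without 1 mouse r ran from -0.57 to 0.49 for Drd5, -0.71 to 0.26 for Adrb1, -0.19 to 0.38 for Adora2a and -0.23 to 0.33 for Adora2b, so no direction holds for these 4, nor, without the young mice, for Drd1. With the replicate block, r was 0.45 for Drd1, -0.17 for Drd5, -0.22 for Adrb1, 0.09 for Adora2a and 0.07 for Adora2b, and no call changed. Deviations of same-numbered mice correlated at 0.00162, -0.13 and 0.03 over the 395 genes. Most genes had few peaks per mouse, so these values cannot decide whether the numbers pair the mice. The q limits were not run for the age trend, which had too few peaks.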
